A study of Mus musculus with 4 samples.

Results

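The jejunum of mice with the G181R form of D-amino acid oxidase (DAO) was compared with the jejunum of mice with the wild-type form. The comparison used the 2 jejunum arrays of the 4 arrays in the study, and the other 2 held the ileum of the same genotypes. The wild-type array held RNA of Tcrbd-/- DAOwt/wt mice and the other held RNA of Tcrbd-/- DAOG181R/G181R mice, so neither group had the genes of the T cell receptor beta and delta chains. Mice of both genotypes were on the C57BL/6J background, were 9 weeks of age and received no treatment that the labels name. The epithelium had been scraped off mechanically, and the RNA of 5 mice was pooled for each group, of which 100 ng went onto 1 array. No mouse was measured by itself and no array was repeated, so none of the differences below has an error between animals or a test, and a difference between genotypes cannot be told apart from one between these pools.

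DAO is a flavoenzyme that oxidises D-amino acids to keto acids, releasing ammonia and hydrogen peroxide. In the small intestine it is made by the epithelium, and its substrates come largely from bacterial cell walls and other bacterial products. The G181R allele changes an amino acid of the enzyme and leaves it with little or no activity. The comparison asks which transcripts of the jejunal epithelium differ between mice with and without the active enzyme, in the absence of T cells that carry a receptor.

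Of 56605 probes, 31838 were well above background on both jejunum arrays. The chosen probe of 21204 genes was among them, and these genes are called measured below. The values are processed signals in scanner units, and a difference is the log2 signal of G181R minus that of wild-type after each array's 75th percentile was taken off. That percentile was 156.1 on the wild-type and 159.7 on the G181R array. The ratio of the printed signals is therefore slightly larger than the scaled fold for higher genes and slightly smaller for lower genes. Where a probe was printed on 10 spots, the log2 difference between the arrays had an SD of 0.0394 over spots (median of 295 probes), and of 0.235 for the 8 of these probes with a signal under 50. Mice, pools and labelling reactions add spread that these spots do not show. All 4 arrays lay on 1 slide and had 1 scan, per the file headers.

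Transcripts of enterocytes were bright, beside those of Paneth and goblet cells such as Defa24 (123431 and 126744) and Zg16 (120319 and 124539). All 19 listed markers of mature enterocytes were measured, and Fabp2 (signals 102487 in wild-type and 100403 in G181R), Apoa4 (104963 and 96027) and Vil1 (57366 and 51748) were among the bright ones. The median difference of the 19 was -0.14, with 0 higher and 0 lower by at least 1.5-fold. Transcripts of the T cell receptor constant regions Trbc1, Trbc2, Trac and Trdc were not well above background on either array, with signals between 1.29 and 4.01. The gamma chain constant region Trgc1, which the deletion leaves in place, was dim, at 18.9 and 26.4, and the CD3 chain Cd3e, which some innate lymphoid cells and residual lymphocytes also make, was at 276 and 227. In scraped tissue, fewer cells of a type and less RNA per cell cannot be told apart.

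At a fold of 2, 162 genes (0.764% of those measured) were higher in G181R jejunum and 158 (0.745%) were lower. At a fold of 1.5 the counts were 721 (3.4%) and 863 (4.07%), and by any amount 48.4% of genes were higher and 51.6% lower. Every count of list members below is to be read against these shares. The lists were chosen with earlier results of these data known. A count above the shares therefore describes the list and is no test of it. The median over all genes was -0.009, and the 5th and 95th percentiles were -0.54 and 0.5. Large differences were few, with 18 genes higher and 9 lower by at least 4-fold, and 3 higher and 0 lower by at least 8-fold. With the genes split into 4 equal groups by signal, the dimmest held 53 of the 2-fold higher and 76 of the 2-fold lower genes, and the brightest 22 and 18. With another background correction (normexp with an offset of 50), which pulls dim signals together, 60 genes were higher and 32 lower, so that the share of higher genes was 65.2% in place of 50.6%.

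**Figure D1:**
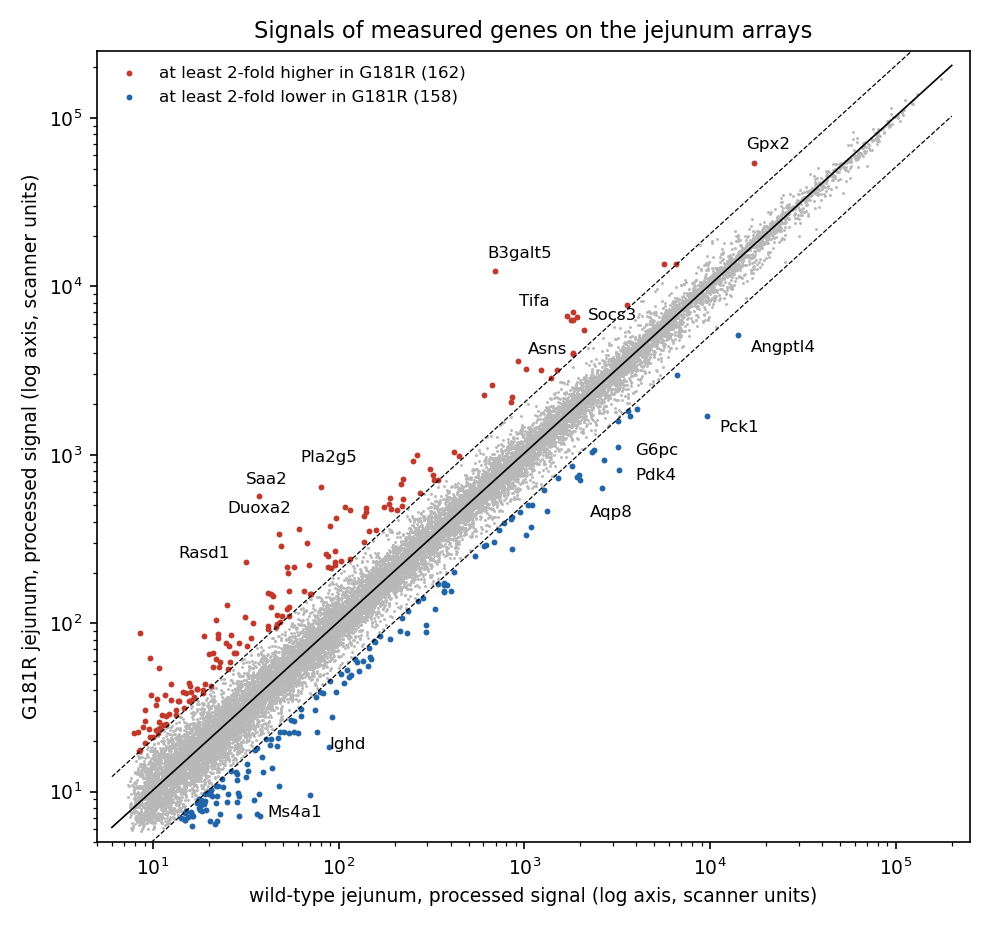
Processed signal of each of the 21204 measured genes in wild-type jejunum (x axis) and G181R jejunum (y axis), both on log axes in scanner units. The solid line marks equal scaled signals and the dashed lines a fold of 2. Red and blue points are the 162 higher and 158 lower genes; B3galt5, Gpx2 and Socs3 stand above the band among bright genes, Pck1 and Angptl4 below it, and most coloured points lie at signals under 1000.

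Dao itself, on chromosome 5, differed little between the genotypes. Its brighter probe, at chr5:114475410-114475469 (mm9), read 1309 in wild-type and 1239 in G181R tissue (-0.11 on the log2 scale). Its dimmer probe, which spans an intron at chr5:114473931-114474838, read 83.8 and 115, a difference of 0.43, so the probes disagreed in direction. The sequence of this dimmer probe is shown because it lies in spliced Dao mRNA.
Dao: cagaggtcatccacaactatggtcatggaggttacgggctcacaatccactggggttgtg
An expression probe of this kind reads the amount of mRNA and does not check a change of 1 amino acid. Of 9 listed genes for enzymes that act on D-amino acids or related substrates, 8 were measured, and none of them differed by 2-fold. Serine racemase Srr, which makes D-serine, read 1267 and 1260.1 (-0.04), D-aspartate oxidase Ddo was not measured, and D-glutamate cyclase Dglucy read 6326 and 4633 (-0.48). Within 10 Mb of Dao lay 221 measured genes, of which 4 were at least 2-fold higher and 3 lower (3.17%, beside 1.51% of all genes). Acacb, Alkbh2, Rfc5 and Spp1 were the higher ones, and Gbp6, Oas1e and Rpap2 the lower ones. The labels do not say from which strain the allele came, so linked sequence that differs from the probes cannot be told apart from expression there.

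Inducible defence genes of the epithelial surface were among those with the largest differences upward. B3galt5, a galactosyltransferase that extends glycan chains, read 696 in wild-type and 12335 in G181R, which made it the highest of all measured genes at 17.3-fold. Gcnt3, which branches mucin glycans, read 671 and 2579 (3.75-fold, with both probes above 3.7-fold). B3gnt7, an enzyme that extends sulfated glycan chains, read 42.9 and 125 (2.85-fold). Of the 15 measured genes of the list for surface glycans and membrane mucins, 4 were 2-fold higher and 0 lower. The shares of all genes were 0.764% and 0.745%. The fourth, mesothelin Msln, is neither a glycan enzyme nor a mucin, and was dim in wild-type, at 10.7 against 54.4. The membrane mucin Muc4 read 1829 and 3319 (0.83), while Muc13, another membrane mucin, read 111605 and 127832 (0.16). The rest, among them the sialyltransferase genes St3gal6 and St3gal4 and the fucosyltransferase genes Fut4 and Fut1, lay between -0.33 (St3gal6) and 0.64 (Fut1).

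The enzyme complex that makes hydrogen peroxide at the surface was higher in both of its parts. The oxidase Duox2 read 24.9 and 129 (5.04-fold), and its maturation factor Duoxa2, the neighbouring gene on chromosome 2, read 60.7 and 361 (5.81-fold). A further probe of Duox2 was measured and gave 2.18 on the log2 scale, beside 2.33. The related oxidase Nox1 (13.6 and 14.4) and the phagocyte oxidase Cybb (31.9 and 31.6) differed by 0.05 and -0.05, and Duox1 and its factor Duoxa1 were not measured. Duox2 and Duoxa2 were the 2 of 8 measured genes of this list past 2-fold.

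Acute phase products and secreted lectins were not uniformly higher. Saa2, an acute phase apolipoprotein that epithelium makes, read 37.0 in wild-type and 566 in G181R (14.96-fold), and Saa1 read 97.0 and 423 (4.27-fold). The chosen probes of Saa1, Saa2 and Saa3 share no run of more than 5 bases. Pla2g5, a secreted phospholipase, read 80.7 and 642 (7.78-fold). Retnlb, a secreted protein of goblet cells, read 31.4 and 109 (3.40-fold), and Lrg1 read 15.6 and 44.2 (2.77-fold). Nos2, the inducible nitric oxide synthase, read 115 and 468 (3.98-fold). With Saa3 (20.6 and 42.6), 7 of the 19 measured genes in this list were 2-fold higher and 0 lower. Over all genes the shares were 0.764% and 0.745%. Antibacterial lectins of the Reg family stood close to equal or lower: Reg3g read 94295 and 105110.1 (0.12), Reg3b 81596 and 84485 (0.02), and Reg1, a secreted member of the family, 62577 and 50933 (-0.33). The polymeric immunoglobulin receptor Pigr, which carries IgA into the lumen, read 79912 and 75187 (-0.12).

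Several of these values depend on the background correction. With normexp, Saa2 stood at 2.49 on the log2 scale in place of 3.90, Pla2g5 at 2.31 in place of 2.96, Duox2 at 1.17 in place of 2.33 and Duoxa2 at 1.87 in place of 2.54. Retnlb, Lrg1, B3gnt7, Msln and Saa3 were then below 2-fold, at 0.89, 0.47, 0.87, 0.64 and 0.32. B3galt5 and Gcnt3, at 4.06 and 1.84, kept nearly the whole of their difference.

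Receptors and feedback genes of the IL-22 and STAT3 pathway were uneven. IL-22 is a cytokine of innate lymphoid cells that induces surface defence genes through STAT3. The cytokine gene Il22 was not measured, and its receptor chain Il22ra1 read 1256 and 999.5 (-0.36). Stat3 read 3092 and 3904 (0.30). The feedback inhibitor Socs3 read 1782 and 6284 (3.45-fold), while Socs1 read 101 and 109 (0.08). Of 16 measured genes 2 were 2-fold higher, Socs3 and Lrg1, and the list median was 0.05. A pair of genes that act together in the sensing of bacterial sugars lay near each other on chromosome 3: the kinase Alpk1 read 52.6 and 217 (4.03-fold, and 1.32 on the log2 scale with normexp), and its target Tifa read 1834 and 6992 (3.73-fold, with both probes at 1.9 on the log2 scale).

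**Figure D2:**
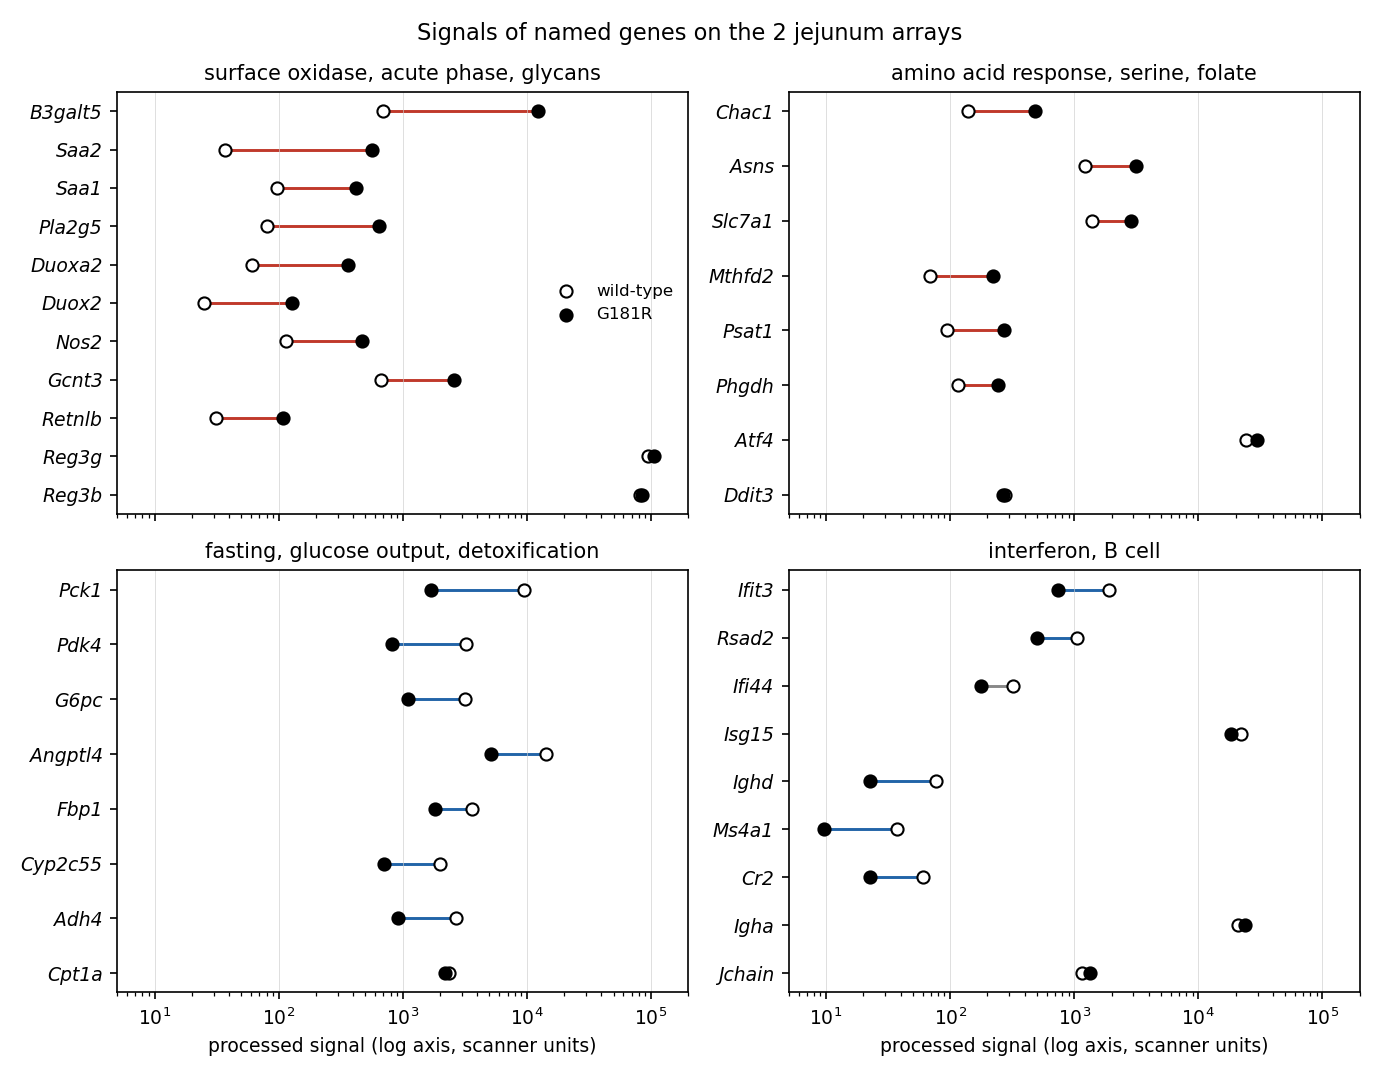
Processed signals of named genes on the wild-type (open circles) and G181R (filled circles) jejunum arrays, on a log axis in scanner units; red lines join genes at least 2-fold higher in G181R, blue lines those at least 2-fold lower, and grey lines the others. Dim and mid-range defence genes such as Saa2 lie far to the right in G181R, whereas Reg3g and Reg3b, near the top of the scale, overlap.

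Genes of the amino acid response were higher in part. This response runs through the transcription factor ATF4, which is made when amino acids are scarce or the endoplasmic reticulum is stressed and which switches on amino acid transport and synthesis. Chac1, an enzyme that degrades glutathione, read 140.2 and 484 (3.38-fold). Asns, asparagine synthetase, read 1221 and 3165 (2.53-fold). The cationic amino acid transporter Slc7a1 read 1389 and 2872 (2.02-fold), and the large neutral amino acid transporter Slc7a5 was dim, at 13.6 and 34.4 (2.48-fold). With normexp Slc7a5 stood at 0.37 and Slc7a1 at 0.99 on the log2 scale. Chac1, Asns, Slc7a1 and Slc7a5 were the 4 of 22 measured genes of the list at 2-fold or more, and 0 were 2-fold lower. The factor Atf5 (848 and 1683, 0.95) lay just under that fold. Atf4 itself read 24216 and 29756 (0.26), and the targets Ddit3 (-0.08), Trib3 (0.09), Sesn2 (-0.03) and Cth (-0.15) were close to equal. Ddit4 and Atf3 were at -0.66 and -0.34. The list had a median of 0.06, and its members past 2-fold were Chac1 and genes of amino acid uptake and asparagine synthesis.

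The second Asns probe, which spans an intron at chr6:7626110-7626255 (mm9), read 65.6 and 188 and gave 1.48 beside 1.34 at the brighter probe. It is shown because the probes of this gene gave similar differences.
Asns: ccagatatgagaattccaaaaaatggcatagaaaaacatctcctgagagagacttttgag
Promoters were searched for the composite element bound by ATF4 (TGATGNAA, on both strands) in the 250 bases before and 50 after each start, as RefSeq gives them on GRCm38.p6. It occurred in 9 of the 22 list genes with a promoter (40.9%), among them Asns and Chac1, and in 4.51% of all 27025 genes. The other carriers Pycr1 (0.57), Nupr1 (0.49), Trib3 (0.09), Vldlr (-0.13) and Atf3 (-0.34) were below 2-fold, and Fgf21 and Slc7a11 were not measured. The 60 bases around the element are shown for Asns and Chac1, the carriers past 2-fold, with the element in capitals. In Asns it starts at position -23 from the start site (promoter chr6:7693160-7693459, minus strand). In Chac1 it lies on the other strand, as TTGCATCA, at position -193 (chr2:119350992-119351291, plus strand).
Asns promoter: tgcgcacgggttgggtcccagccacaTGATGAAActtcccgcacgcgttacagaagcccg
Chac1 promoter: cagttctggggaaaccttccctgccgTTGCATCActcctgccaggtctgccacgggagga
A match of letters is a description of the promoter and not a sign of binding.

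Serine synthesis and mitochondrial folate enzymes were higher beside them. Psat1 and Phgdh, enzymes of serine synthesis, read 94.9 and 269 (2.77-fold) and 115 and 241 (2.05-fold). Mthfd2, a mitochondrial enzyme of folate metabolism, read 69.0 and 221 (3.12-fold, with its probes at 1.64 and 1.74 on the log2 scale). The last enzyme of the serine route, Psph, read 253 and 299 (0.21), and Shmt2, which moves carbon from serine to folate, read 139 and 194 (0.45). Of 12 measured genes 3 were 2-fold higher and 0 lower, beside 0.764% and 0.745% of all genes, and the median was 0.43. Phgdh was at 0.71 with normexp, below 2-fold. No promoter of the 11 genes of this list with one held the letters TGATGNAA.

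Aminoacyl tRNA synthetases, which load tRNAs with amino acids, were higher together by small amounts. Of 19 measured genes 18 were higher by any amount, beside 48.4% of all genes, 5 by at least 1.5-fold (3.4% of all genes) and 0 by 2-fold. Yars (191 and 359.5, 0.88) and Mars1 (135 and 246, 0.83) were the highest, and Dars (150.5 and 152, -0.01) was the single gene not higher. The value of Aars depends on the probe, as its 3 measured probes ran from -0.76 to 0.55. Those of Yars ran from 0.27 to 0.88, with a mean of 0.54. The element TGATGNAA was in the promoters of Aars, Gars, Iars, Tars and Yars, 5 of the 12 with a promoter (41.7%).

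Folding enzymes of the endoplasmic reticulum were higher by less, and other stress lists had medians near 0. Xbp1, a factor of secretory cells, read 11866 and 18167 (0.58), Creld2 5472 and 8164 (0.54), and the chaperone Hspa5 16146 and 21779.6 (0.40). Herpud1, a gene of protein disposal, stood the other way, at 5424 and 3602 (-0.62). Of 22 measured genes 16 were higher, 0 of them by 1.5-fold, with a median of 0.26. In the glutathione and NRF2 list (median -0.01), Gpx2, the glutathione peroxidase of gut epithelium, read 17293 and 53712 (3.04-fold) and Gsr, glutathione reductase, 4369.6 and 8150.4 (0.87). Gclm, the regulatory subunit of glutathione synthesis, was lower, at 3841 and 2331 (-0.75), and Cat, the catalase of peroxisomes, read 3502 and 2611 (-0.46). The heat shock and immediate early lists had medians of 0.03 and -0.10 and no member at 2-fold.

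Genes of cell division were mostly higher, each by less than 2-fold. In the mitosis list 25 of 26 measured genes were higher, beside 48.4% of all genes, and 5 of them by at least 1.5-fold, beside 3.4%, with a median of 0.43. Ccnb1, the mitotic cyclin, read 210.2 and 347 (0.69), Cdc20 476 and 755 (0.63), Mki67 1106 and 1380.5 (0.29), and Kif11 44.8 and 45.6 (-0.01). In the DNA replication list 21 of 25 were higher and 7 by at least 1.5-fold, read against the same shares, with a median of 0.40. Ccne1, the cyclin of entry into S phase, read 89.1 and 168 (0.89) and Mcm3, a subunit of the replicative helicase, 383 and 619 (0.66), whereas Pcna read 2584 and 2539 (-0.06). The list of cycle brakes and p53 targets leaned the other way, with 5 of 17 lower by at least 1.5-fold, beside 4.07% of all genes. Among them were Sesn1 (2700.5 and 1659.7, -0.74), Bbc3 (316 and 189, -0.77) and Btg2 (1363 and 914, -0.61). The measured kinase inhibitors of the cycle were mixed: Cdkn1c was at -0.64, Cdkn1b at -0.27, Cdkn1a at -0.04 (2752 and 2743), Cdkn2c at 0.31 and Cdkn2b at 0.46. Beside these lists, markers of mature enterocytes had a median of -0.14 and markers of stem cells and the crypt base one of 0.06. Among the latter, Lgr5 read 81.1 and 85.0 (0.03), Olfm4 133 and 165 (0.28) and Axin2, a feedback gene of Wnt signalling, 240.0 and 418 (0.77). The part of cell type shares in the cell cycle values was not tested.

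Of the other epithelial types, Paneth cells gave the highest list median, 0.37, with 15 of 18 measured genes higher, beside 48.4% of all genes. Defa21, an alpha-defensin, read 6537 and 13545 (2.02-fold), the secreted protein Mptx2 10853 and 19016 (0.78), and Mmp7, the protease that activates defensins, 2138 and 3507 (0.68). Other members were closer to equal: Defa24, another alpha-defensin, read 123431 and 126744 (0.00) and Lyz1, lysozyme, 29889 and 35253 (0.20). The highest signals of any probe were 175489 on the wild-type and 169148 on the G181R jejunum array. Whether signals near that top, such as those of Defa24, understate a difference was not tested. Probes of some alpha-defensins share up to 35 bases, so these genes are read in part together, while the probe of Defa21 shared at most 7 with any of them. Goblet cell genes such as Muc2 (42903 and 48018, 0.13) and Tff3 (68811 and 67228, -0.07) had a median of 0.08, with Retnlb the single member at 2-fold. Tuft cell genes (median -0.15) and enteroendocrine genes (-0.09) had no member at 2-fold, with Dclk1 at 62.5 and 60.4 and Chga at 2769 and 2601.

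**Figure D3:**
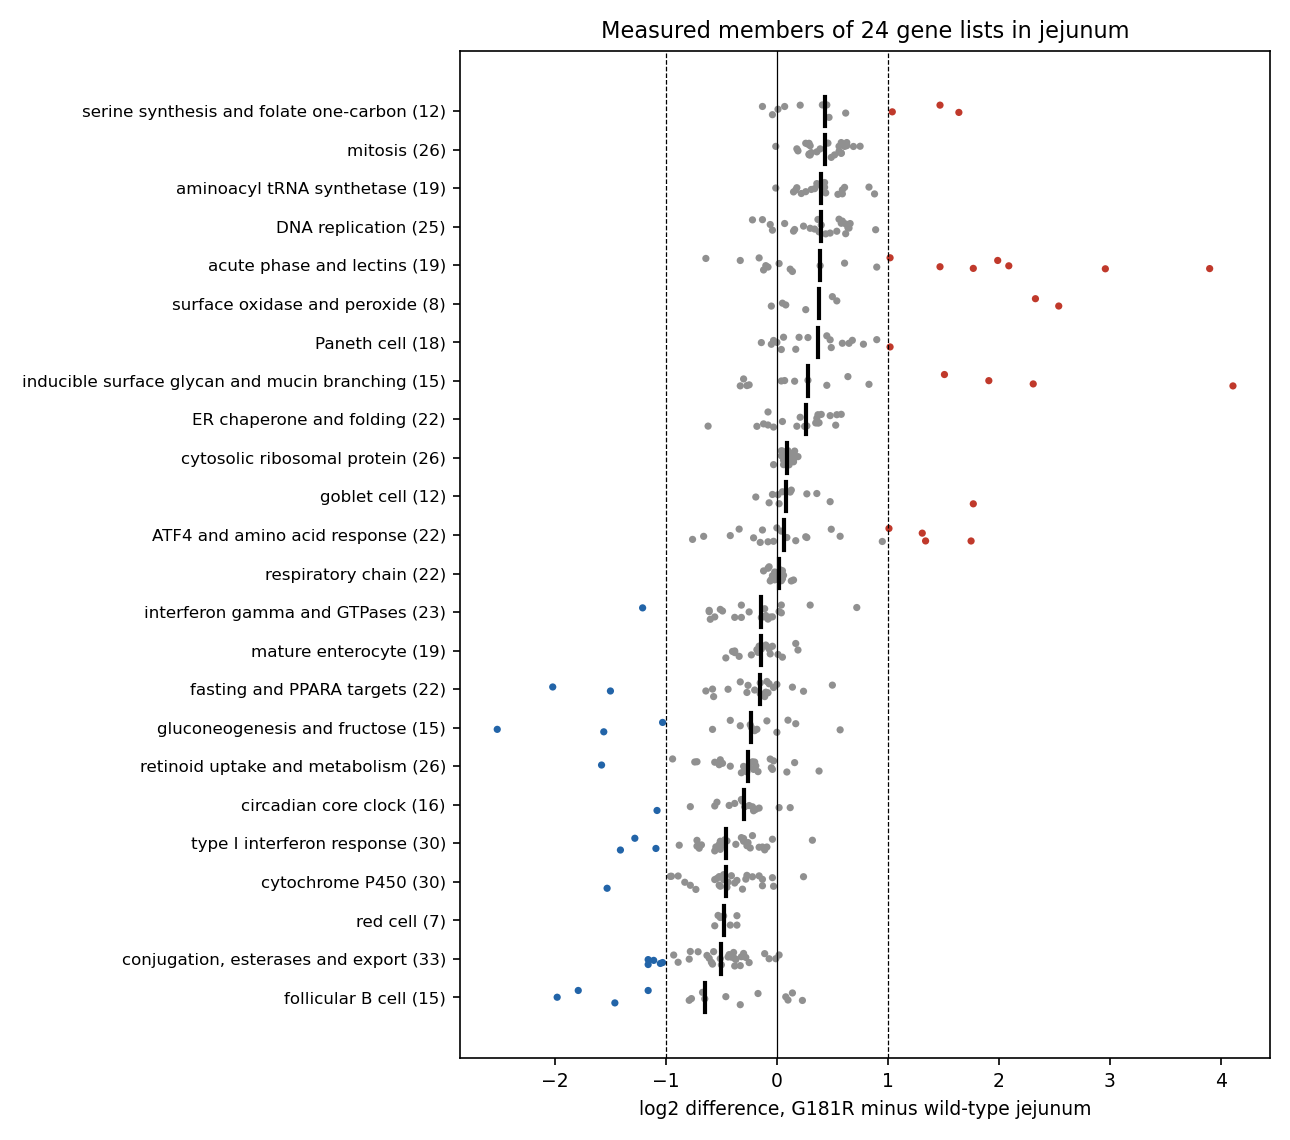
Log2 difference between G181R and wild-type jejunum (x axis) for each measured member of 24 gene lists (rows, with the number measured), ordered by list median (black bars). Red and blue points are members at least 2-fold higher or lower, and dashed lines mark a fold of 2. Cell cycle and tRNA synthetase genes form tight groups to the right of 0, while the amino acid response, acute phase and fasting lists hold a few far members beside many near 0.

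Genes of fasting and of glucose output were among the lowest. Pck1, which commits carbon to gluconeogenesis, read 9584 in wild-type and 1705 in G181R, the lowest gene with an official symbol at 5.75-fold lower. G6pc, the last enzyme of glucose output, read 3208 and 1112 (2.95-fold lower) and Fbp1, the step between them, 3605 and 1807 (2.04-fold lower). Pdk4, a kinase that keeps pyruvate out of the citric acid cycle in fasting, read 3229 and 817 (4.04-fold lower). Angptl4, a secreted inhibitor of lipoprotein lipase, read 14186 and 5136 (2.83-fold lower). All 5 differences stayed past 2-fold with normexp.

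Other members of the same lists differed far less. Of 15 measured genes of gluconeogenesis and fructose metabolism 3 were 2-fold lower, and of 22 fasting and PPARA target genes 2 were, beside 0.745% of all genes. Ppara, the receptor that drives fat oxidation in fasting, read 2057 and 1413 (-0.58), and Cpt1a, the entry of fatty acids into mitochondria, 2368 and 2179 (-0.15). Fructokinase Khk (29671 and 26345, -0.20) and the sugar transporters Slc5a1 (2744 and 3169.6, 0.17) and Slc2a5 (8509 and 7391, -0.24) were near 0. By any amount, 19 of the 22 fasting genes were lower, beside 51.6% of all genes. Acacb, an acetyl-CoA carboxylase that restrains fat oxidation, was among the highest genes by its chosen probe (47.8 and 337), but its 3 measured probes ran from -0.25 to 2.79, and with normexp the chosen probe was at 1.89. Fasn, fatty acid synthase, read 1224 and 1765 (0.49), and the synthesis list had a median of 0.11.

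Detoxification genes were lower broadly and mostly by less than 2-fold. Of 30 measured cytochrome P450 genes 29 were lower by any amount, 7 by at least 1.5-fold (4.07% of all genes) and 1 by 2-fold, with a median of -0.46. That gene, Cyp2c55, read 1997 and 709.7 (2.88-fold lower). Cyp3a11, the main drug-oxidising enzyme of the family in mice, read 2868 and 1511 (-0.96), Cyp2b10 51624 and 35849 (-0.56), and Cyp4f14 33847 and 33995 (-0.03). The Cyp3a genes are related copies, and the probes of Cyp3a25 and Cyp3a57 share 29 bases. Of 33 genes of conjugation, esterases and export 32 were lower, 13 by 1.5-fold and 5 by 2-fold, with a median of -0.50. The 5 were the glucuronosyltransferases Ugt2b5 (1103 and 504) and Ugt2b36 (367 and 168), the epoxide hydrolase Ephx1 (1812 and 859), the glutathione transferase Gsta3 (859 and 425) and the carboxylesterase Ces1g (236 and 118). With normexp, Ugt2b36, Gsta3 and Ces1g were at -0.91, -0.90 and -0.72, below 2-fold.

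The receptors that switch these enzymes on did not differ by 2-fold. Of 17 measured genes of xenobiotic receptors and their partners, 12 were lower by any amount, beside 51.6% of all genes. By at least 1.5-fold 3 were lower, beside 4.07%, and 0 were higher. The list median was -0.22, and its values ran from -0.83 to 0.44. The xenobiotic receptors Nr1i2 (2464 and 2513, -0.01) and Nr1i3 (537 and 570.4, 0.05) and the aryl hydrocarbon receptor Ahr (484 and 472, -0.07) were close to equal. The vitamin D receptor Vdr read 6148 and 4313 (-0.54), and Por, the electron donor of the P450 enzymes, 9420.3 and 6282 (-0.62). Of 26 retinoid genes 23 were lower, and 1 by 2-fold: the alcohol dehydrogenase Adh4 read 2693 and 925 (2.98-fold lower). Cyp26b1, which degrades retinoic acid, read 232 and 123 (-0.94), and Rbp2, the retinol carrier of enterocytes, 15102 and 13298 (-0.22).

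Genes of digestion and absorption differed little as a whole. Of 18 measured brush border hydrolases 0 differed by 1.5-fold, with lactase Lct at 69632 and 51730.5 (-0.46) and the peptidase Anpep at 73894 and 75937 (0.01). In fat absorption 19 of 23 genes were lower with a median of -0.14, Abcg8, a sterol exporter, was at 4923 and 2725 (-0.89), and the cholesterol exporter Abca1 stood the other way at 209 and 409 (0.94). The nutrient and ion transport list had a median of -0.03, and its far members were the water channel Aqp8 (2624 and 634, 4.24-fold lower) and Slc9b1, dim at 37.7 and 7.198 and at -0.53 on the log2 scale with normexp. Slc9a3, the sodium/proton exchanger of the brush border, read 10191 and 18451 (0.82), and metallothionein Mt2 2341 and 4294 (0.84). Cubn, the receptor that takes up vitamin B12 with intrinsic factor, read 3723 and 1702 (2.24-fold lower). Genes at work in every cell varied little: 25 of 26 ribosomal protein genes were higher with a median of 0.09, and 22 respiratory chain genes had one of 0.02. Among 15 tight junction genes 1 was past 2-fold, the pore-forming claudin Cldn2, at 159 and 358 (2.20-fold higher).

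Clock and glucocorticoid genes were lower in part. Of 16 core clock genes 14 were lower, beside 51.6% of all genes. Cry2, a repressor of the clock, was lower by 2-fold (950.2 and 459, with its 3 probes between -1.08 and -0.87). Per1 read 854 and 593 (-0.56), Per2 197 and 155 (-0.38), Arntl, the activator of the clock, 578 and 529.6 (-0.16), and Cry1 45.5 and 50.5 (0.12). Among output factors, Tef was at 1843 and 1124 (-0.75) and Dbp at 184 and 163 (-0.21). Hlf, at 16.1 and 7.54, was dim and stood at -0.24 with normexp. Of 15 glucocorticoid response genes 13 were lower, beside 51.6% of all genes, and 4 of them by 1.5-fold, beside 4.07%. The median was -0.26. Klf15 read 403 and 155 (2.66-fold lower), Sgk1, a kinase of salt transport, 15627 and 8576 (-0.90), and Tsc22d3 4739 and 2623 (-0.89), while Fkbp5 (-0.25), Klf9 (-0.03) and the receptor gene Nr3c1 (-0.26) lay nearer 0. Zbtb16 read 145 and 71.0, and was at -0.64 with normexp, below 2-fold. Rasd1, also known as inducible by glucocorticoids, stood the other way, at 31.5 and 230.2 (7.15-fold higher, with its probes at 2.84 and 2.94, and 1.68 with normexp). The hour of collection is not given in the labels, and its part in the clock, glucocorticoid and fasting values was not tested.

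Interferon-stimulated genes were lower together. These genes are switched on by type I and III interferons and restrict the growth of viruses. Of 30 measured genes of the type I list 29 were lower by any amount, 8 by 1.5-fold and 3 by 2-fold, and the median was -0.46. The matching shares of all genes were 51.6%, 4.07% and 0.745%. Ifit3 read 1916 and 737 (2.66-fold lower), its close relative Ifit3b 370.3 and 156 (2.44-fold lower), and Rsad2, an antiviral enzyme, 1049.7 and 503 (2.13-fold lower). Irf7, a transcription factor of the pathway, read 19552 and 14317 (-0.48), and Isg15, a ubiquitin-like modifier, 22141 and 18393 (-0.30). Zbp1, a sensor of nucleic acids, was the single higher member, at 1683 and 2151 (0.32). Among the ligand genes Ifnb1 and Ifng were not measured, and Ifnl3 read 45.4 and 45.5 (-0.03). The receptor genes Ifnar1 (1798 and 1707, -0.11) and Ifnlr1 (1843 and 1599.5, -0.24) differed little.

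The response element of these genes (GAAA, any 2 bases and GAAA, on both strands) was in the promoters of 14 of the 21 list genes with one (66.7%), and in 3.99% of all genes. It is shown for Ifit3 and Rsad2, members past 2-fold, in capitals, and reads TTTCACTTTC on the strand of Ifit3. In Ifit3 it starts at position -156 (promoter chr19:34583279-34583578), and a further match follows it. In Rsad2 it starts at position -120 (chr12:26456403-26456702).
Ifit3 promoter: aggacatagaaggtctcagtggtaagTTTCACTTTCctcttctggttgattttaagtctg
Rsad2 promoter: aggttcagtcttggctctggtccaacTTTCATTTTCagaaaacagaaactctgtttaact
The same 60 letters as in Ifit3 stand in the promoter of Ifit3b, at position -188.

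Genes of the interferon gamma list were lower in smaller number, 18 of 23, with a median of -0.14. The guanylate-binding protein Gbp6 read 134 and 59.4 (2.31-fold lower, and -0.78 on the log2 scale with normexp), the GTPase Igtp 4471 and 3104 (-0.56), and Gbp4 was higher at 85.3 and 144 (0.72). The MHC class II genes, which present antigen, were near equal, with Cd74 at 2797 and 2594 (-0.14) and a median of -0.14 over 9 genes. Beside these values, 5 of 12 macrophage and dendritic genes were higher and 7 lower, with a median of -0.03. Their summed signal was 28527 in wild-type and 35881 in G181R jejunum, most of it from Lyz2 (24235 and 31466), and the part of immune cells in the interferon values was not tested.

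Markers of follicular B cells were lower and markers of plasma cells were not. Of 15 measured follicular B cell genes 4 were 2-fold lower, beside 0.745% of all genes and 1.43% of the dimmest group by signal, and 0 higher. The median was -0.65, and -0.14 with normexp for the follicular B cell list. Ms4a1, which encodes CD20, read 37.2 and 9.67, Ighd, the IgD heavy chain of naive B cells, 76.4 and 22.6, the complement receptor Cr2 60.5 and 22.4, and Fcrla 15.4 and 7.07. The signals of these genes were dim in G181R, where the lowest signal well above background was 5.83. With normexp they were at -0.52, -0.78, -0.61 and -0.14, all below 2-fold. Cd79b, a chain of the B cell receptor complex, read 117 and 76.3 (-0.65), while Pax5 (16.6 and 20.0, 0.23) and Bank1 (17.6 and 19.2, 0.10) were not lower. Fcmr, the receptor for IgM, was well above background in wild-type alone, at 30.1 against 6.06, at least 5.08-fold lower. The lymphoid follicle genes Clu (331 and 122, -1.48) and Cxcl13 (30.4 and 17.8, -0.80) were lower beside them, and Ccl21a was not (68.3 and 82.6, 0.24). Among plasma cell genes, the IgA heavy chain Igha read 20902 and 23746 (0.15), the joining chain Jchain 1149 and 1334 (0.18) and the kappa chain Igkc 4473 and 5451 (0.25), and all 9 measured genes of that list were higher by small amounts (median 0.18). The follicle list as a whole had a median of -0.33 over 9 genes, and the part of lymphoid follicles in the B cell values was not tested.

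Lists of other cell types ranged from near equal to lower. The list of innate lymphoid and NK cells had a median of -0.38 (10 of 11 genes lower, 0 by 2-fold), with Gzma, a granzyme, at 17619 and 14239. The remaining T cell markers had one of -0.28, with Cd8a at 70.7 and 46.1, and macrophage and dendritic genes one of -0.03. Of 7 measured neutrophil genes 6 were higher, among them Ltf, lactoferrin, at 31.6 and 59.1 (0.87), with a median of 0.13, and S100a8, S100a9 and Ngp were not measured. Smooth muscle genes were near equal, with Myh11 at 106 and 111 (0.03) and Actg2 at 1456 and 1679 (0.17). Red cell genes were lower, with Hba-a1 at 6908 and 4976 (-0.51) and a median of -0.48, all 7 of 7 lower. Of 9 adipocyte genes 8 were lower, with a median of -0.43; Cfd was at 219 and 107 (-1.07) and Adipoq at 17.6 and 12.8 (-0.50). The median of endothelial genes was -0.09, that of fibroblast genes -0.24 and that of nerve and glia 0.09. The pancreatic genes Prss2, Pnlip and Cpa1 were not measured.

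Where a gene had several probes, their agreement was read. Of the 162 higher genes 35 had more than 1 measured probe, in 27 of these all probes pointed the same way and in 13 all were past 2-fold. Of the 158 lower genes 27 had more than 1, with 25 and 13. Among those higher at all their probes were Rasd1, Duox2, Gcnt3, Tifa, Mthfd2, Asns, the glycan enzyme Mgat4c (53.3 and 198), the kinase Ptk6 of differentiating gut epithelium (859 and 2192), Wtip (221 and 719.8) and Gml2 (67.8 and 298). Gml, the neighbour of Gml2 on chromosome 15, read 108 and 492 (4.44-fold). Among those lower at all their probes were the phosphate and urate transporter Slc17a4 (1016 and 333, -1.64), the proton channel Otop3 (1087 and 374, -1.57), the amino acid transporter Slc6a20b (91.8 and 27.9, -1.75), Cyp2c55, the fatty acid activating enzyme Acsl3 (382 and 168, -1.21), the laminin chain Lama3, Cfd, Paqr9, Adgrv1 and Akr1c14. With normexp, Slc6a20b, Acsl3, Cfd, Paqr9, Adgrv1 and Akr1c14 were below 2-fold, at -0.88, -0.99, -0.82, -0.86, -0.29 and -0.62, while Mgat4c and Gml2 were at 1.22 and 1.48.

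Some of the far values rested on 1 of several probes. The cadherin Celsr3 read 49.1 and 288 (5.73-fold) at its chosen probe, while its other probes, at 13.1 and 4.18 and at 1.47 and 2.54, were not well above background on both arrays, and with normexp the chosen probe was at 1.69. Tmod2 (28.9 and 7.22) and Traf3ip3 (34.9 and 8.95) had further measured probes at 0.11 and -0.68, and the histone chaperone Anp32a (860.5 and 278, -1.67) one at -0.17. Among the genes below 2-fold as the mean of all their measured probes were Acacb (0.96), Anp32a (-0.92), Tmod2 (-0.96), Gsta3 (-0.99), Cry2 (-0.99), Rfc5 (0.72), Plce1 (0.85), Thsd7a (0.61) and Hectd2 (0.60). The dim genes Hoxb13 (21.5 and 6.39), F11, which encodes a clotting factor (22.1 and 6.68), Rnf157 (29.0 and 9.40) and Sncaip (28.4 and 8.66) had 1 measured probe each and G181R signals under 10. With normexp, Tmod2, Traf3ip3, Hoxb13, F11, Rnf157 and Sncaip were below 2-fold, between -0.45 (Tmod2) and -0.29 (F11). The serine protease Prss27 read 21.9 and 104 and was at 0.81 with normexp, below 2-fold, and Lsmem1 read 295 and 88.3 (-1.77). Just past the threshold of 2-fold lay Slc7a1, Plce1 and Trp53i11 at 2.02-fold, 2.01-fold and 2.01-fold, and just under it Asb16, Tbc1d22b and Pgs1 at 1.995-fold, 1.99-fold and 1.99-fold.

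A further set of genes was well above background on 1 jejunum array alone, so only a bound can be given: the signal against the higher of the other array's own signal and its lowest signal well above background. With official names, 29 genes were at least 2-fold higher in G181R by this bound and 62 at least 2-fold lower. The histone gene H2bc22 read 4.38 in wild-type and 71.6 in G181R, at least 9.50-fold higher, followed by Adamts16 (at least 6.39-fold), Cpn2 (6.12), Pirt (6.09), Insyn1 (4.35), Pde6b (4.32), Nek10 (3.93) and Dnal1 (3.89). Cxcl1, a chemokine that attracts neutrophils, read 8.39 and 25.9, at least 3.02-fold higher. On the other side stood Six3 (44.5 and 1.24, at least 7.81-fold lower), Pdcl2 (6.76), Calcoco2 (6.10), Myh7 (5.84), Fcmr, Wnt2 (4.67), Ffar1 (4.66) and Ldc1 (4.48). None of these genes read above 100 on either array, and Cxcl1 was named after its value was seen.

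Setting the jejunum beside the ileum of the same genotypes shows which jejunal differences had a counterpart. The arrays of the tissues are separate, but the labels do not say whether the mice were the same. Past 2-fold in G181R ileum, 2.0% of its measured genes were higher and 3.21% lower. Of the 157 genes 2-fold higher in jejunum and measured in both tissues, 87 (55.4%) were 2-fold higher in ileum too, which is 23.6% of the 369 higher there, and 1.81% of all genes measured in both were. Of 112 lower in jejunum 39 (34.8%) were 2-fold lower in ileum, 6.22% of the 627 lower there, beside 3.07% of all. By any amount, 136 of the 157 were higher in ileum (86.6%, beside 53.5% of all genes) and 80 of the 112 were lower (71.4%, beside 46.5%). B3galt5 (4.11 in jejunum and 3.19 in ileum), Celsr3 (2.52 and 2.66), Prss27 (2.21 and 2.24), Socs3 (1.78 and 2.24), Retnlb (1.77 and 2.27), Chac1 (1.75 and 2.06) and Asns (1.34 and 1.47) were higher in both. Pck1 (-2.52 and -1.89), Pdk4 (-2.02 and -2.63), G6pc (-1.56 and -3.15), Angptl4 (-1.50 and -3.13), Slc17a4 (-1.64 and -1.72) and Cyp2c55 (-1.53 and -4.48) were lower in both.

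The starting levels of the tissues differed for some of these genes. Wild-type signals of Saa2 were 37.0 in jejunum and 35272 in ileum, and those of Duox2 24.9 and 542. Pck1 read 9584 in wild-type jejunum and 628 in wild-type ileum. Among whole lists, the median of the mitosis list was 0.43 in jejunum and 0.56 in ileum, that of the tRNA synthetases 0.40 and 0.62, that of the P450 genes -0.46 and -1.47, and that of smooth muscle 0.12 and -2.51. Among the lists that pointed opposite ways were smooth muscle, the lymphoid follicle list (-0.33 and 0.56), the type I interferon list (-0.46 and 0.50), the interferon gamma list (-0.14 and 1.12), MHC class II (-0.14 and 0.64) and the follicular B cell list (-0.65 and 0.67). With 1 array per group, the difference between the tissues was not tested. Single genes 2-fold different in opposite directions were Optc, Thsd7a and Hectd2, higher in jejunum and lower in ileum, and Aqp8, Gbp6 and Ighd, lower in jejunum and higher in ileum.

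**Figure D4:**
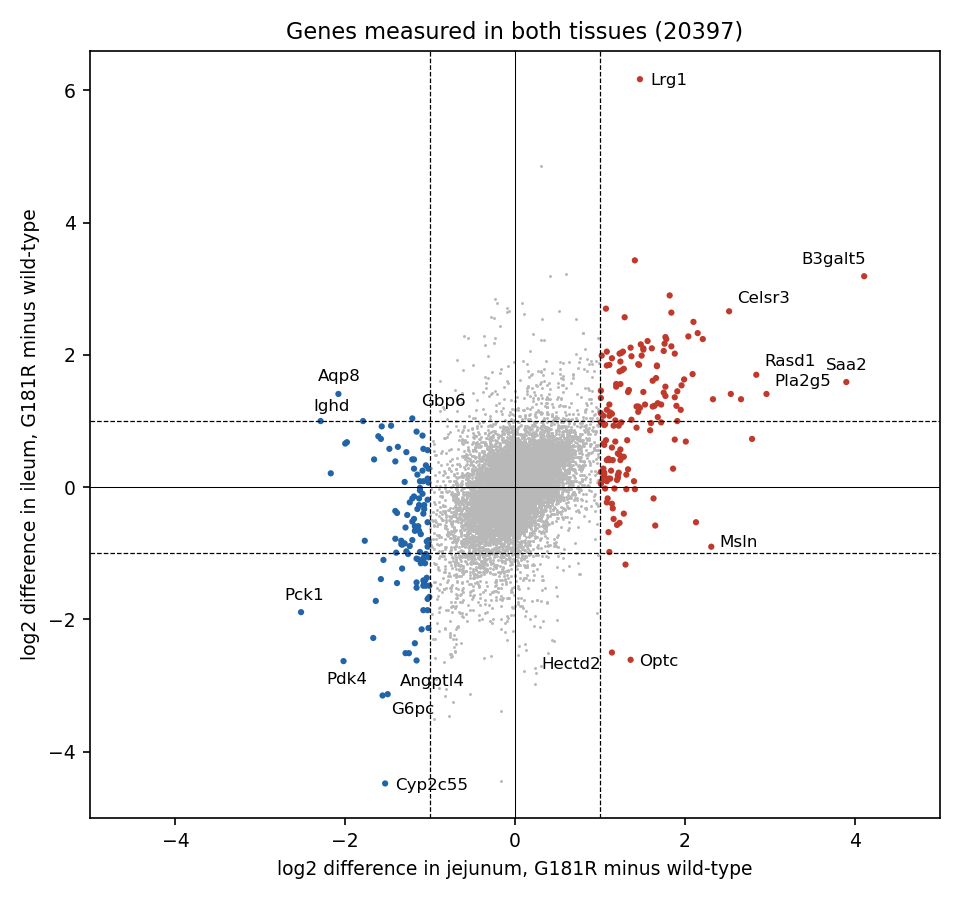
Log2 difference between G181R and wild-type in jejunum (x axis) and in ileum (y axis) for the 20397 genes measured in both tissues; red and blue points are at least 2-fold higher or lower in jejunum, and dashed lines mark a fold of 2 in each tissue. Most red points lie above 0 in ileum as well, 136 of 157, and 80 of 112 blue points lie below 0, with Aqp8, Ighd and Gbp6 in the upper left and Optc and Hectd2 in the lower right.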

How the data were processed

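RNA of 4 pooled samples was hybridised to Agilent 1-colour arrays, 1 per tissue and genotype, and read with Agilent Feature Extraction 11.5.1.1, per the submitters' processing notes. The deposited scanner files hold processed intensity, which the authors' software had corrected for background, and flags of a well above background or outlier spot, per the file headers. Replicated spots were averaged, outlier spots left out, log2 taken and each array's 75th percentile subtracted (python 3.11.15, numpy 2.4.6, pandas 2.3.3). A gene took its brightest probe over all 4 arrays, ileum included, without regard to the background flags. It counted as measured in jejunum only where that chosen probe then passed the flag in each genotype. A gene such as Fcer2a was therefore left out although another of its probes passed (0.41 on the log2 scale). Of the probes, 32994 were named through RefSeq accessions, 29 by description and 520 by an older symbol, and 23062 kept the design's name.

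Groups of 1 array allow no test, so a fold of 2 was counted and no p-value is given. Alternatives were normexp (R 4.3.3, limma 3.58.1), quantile and median scaling, no and a stricter background filter, the mean of probes and outlier spots kept. The counting was tested on simulated data. The series table of 4 columns was not used. Members and gene lists were chosen with earlier results of these data known. The genes named were Dao, the 15 highest and 15 lowest with official symbols, the 10 each way whose probes were all past 2-fold, list members past 2-fold with up to 6 others, the 8 largest bounds each way and genes past 2-fold in both tissues. Some further list members were named for their role after their values were seen.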

Additional observations from a re-analysis of the deposited data

Results flagged for a closer look

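Some differences between genotypes pointed opposite ways in jejunum and ileum. With 1 array per tissue and genotype, the difference between the tissues was not tested for any of them, and its cause was not tested. Among gene lists, the median log2 difference of the follicular B cell list was -0.65 in jejunum and 0.67 in ileum, that of the lymphoid follicle and M cell list -0.33 and 0.56, and that of the type I interferon list -0.46 and 0.5. Among single genes at least 2-fold different in both tissues, the eye and cartilage matrix gene Optc was at 1.36 in jejunum and -2.61 in ileum, Thsd7a at 1.3 and -1.17, and Hectd2 at 1.14 and -2.5. The water channel Aqp8 was at -2.08 and 1.41, the guanylate-binding protein Gbp6 at -1.21 and 1.04, and Ighd at -1.79 and 1.0. The further measured probes of Thsd7a and Hectd2 in jejunum were at -0.08 and 0.07, so these genes rest on 1 of their probes.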

How the results depend on the processing

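The count of genes at least 2-fold higher in G181R jejunum, 162 as reported, was 60 with normexp background correction, 1165 with no background filter and 92 with the stricter one. The count of genes at least 2-fold lower in G181R jejunum, 158 as reported, was 32, 1642 and 79. Quantile scaling, median scaling, the mean of probes and outlier spots kept left both counts within 1.5 times. The share of higher genes was 50.6% as reported, 65.2% with normexp and 41.5% with no filter, which also moved the median of all genes to -0.102. Of 80 genes past 2-fold among the most extreme genes and the list members, 33 were below it with normexp and 5 with the mean of probes. No named difference past 2-fold turned its direction. Of 60 list medians 59 kept their sign with normexp, and 60 under each other setting. In this count a median under 0.1 in size was taken as kept. The remaining 41 medians were at least 0.1 in size, and the list that failed with normexp was among these. With normexp the median of the follicular B cell list moved most, by 0.51 to -0.14, and the median of the adipocyte list was -0.13. The median of the glutathione and NRF2 list went from -0.01 to 0.01, which the count took as kept. No paired analysis was possible because each group held 1 array and the labels give no replicate numbers. With 1 pool per group, the spread between mice is unknown, and dim signals are the least certain.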
